A study of Mus musculus with 8 samples.

Results

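Slc26a3, Slc9a3, Car1, Car4, Aqp8, Aqp4, Atp12a, Scnn1a, Scnn1b and Scnn1g encode the exchangers, carbonic anhydrases, water channels, proton pump and sodium channel subunits through which the colon takes up salt and water. They were chosen by symbol, and all 10 were found among the 31053 genes of a single-cell count table from mouse distal colonic mucosa. The 8 mice were 8 weeks old, and every one carried floxed Spry2 alleles, so the controls were floxed animals and not unmodified ones. Spry2 encodes an inhibitor of growth factor receptor signalling. In 4 mice (numbers 2, 3, 6 and 7, here KO-labelled) Cre driven by the villin promoter, which is active in the intestinal epithelium, was present as well. Their 4 littermates (numbers 1, 4, 5 and 8, here WT-labelled) carried the floxed alleles without Cre. The tissue was stripped of muscle and digested, dead cells were depleted with annexin V antibodies, and the 3′ ends of transcripts were sequenced on the 10x Chromium platform with all libraries prepared on 1 day.

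Absorption in the distal colon rests on paired apical exchange: Slc9a3 (NHE3) brings in sodium for protons while Slc26a3 (DRA) brings in chloride for bicarbonate, and carbonic anhydrases supply both counter-ions. The epithelial sodium channel ENaC, built from Scnn1a, Scnn1b and Scnn1g subunits, adds an electrogenic route that aldosterone controls, and Atp12a (the colonic H+/K+-ATPase) recovers potassium. Water follows the salt, partly through aquaporins, of which Aqp8 is an apical and Aqp4 a basolateral channel in epithelia.

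Counts are unique molecular identifiers (UMIs), each standing for 1 captured transcript, and levels are given as counts per 1000000 UMIs (CPM), from UMIs summed over the cells of a type in a mouse. Since only 3′ ends were counted and no length scaling was made, levels are compared within a gene and not between genes. Without the 1316 cells that carry a doublet name in the authors' annotation, the libraries held 16640154 to 36327277 UMIs each, of which 5697846 to 20050920 came from epithelial cells. Epithelial cells with at least 50% mitochondrial UMIs made up 53.5% to 79.6% of the class in mice 1 to 4 and 11.1% to 37.2% in mice 5 to 8, and each of these sets held 2 KO-labelled and 2 WT-labelled mice. Of 52717 distinct barcodes, 356 occurred in more than 1 mouse. Spry2 stood at 10.4, 13.3, 15.7 and 49.3 CPM in the epithelium of the KO-labelled mice 2, 3, 6 and 7 and at 11.2, 17.6, 27.7 and 37.6 CPM in the WT-labelled mice 1, 4, 5 and 8. The groups overlapped, and where the counted 3′ tags lie relative to the floxed stretch was not tested. Tags outside it would check nothing about the deletion, so the genotype stands here as the labels give it.

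The 10 genes were epithelial genes in this tissue. Between 94.3% (Scnn1b) and 98.4% (Aqp4) of each gene's UMIs came from the 23787 cells of the authors' epithelial class, with totals over all cells that ran from 148 UMIs for Scnn1g to 105973 for Car1. The authors divided the epithelium into enterocyte, stem-progenitor, goblet, secretory-progenitor and tuft cells and cells they call DCS, but these names are filled in for WT-labelled mice only, and there for part of the cells. Levels by subtype therefore rest on WT-labelled mice with at least 20 cells of the type, and they are described and not tested, since how the types were drawn is not given in the sources used here and the members may have been among the genes used.

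The names were checked against marker genes that hold none of the 10 members. Enterocytes carried 24455 ± 5174 CPM (SD, n = 4 mice) of the summed colonocyte markers (Krt20, Ceacam1, Guca2a and others) against 19.2 CPM of stem cell markers (Lgr5, Ascl2 and others). Goblet cells carried 188575 CPM of goblet markers (Muc2, Zg16, Fcgbp and others) and 10927 CPM of colonocyte markers. Stem-progenitor cells carried 114 ± 24.0 CPM of stem cell markers and also 12387 CPM of colonocyte markers, so both kinds of transcript were found under this name.

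**Figure D1:**
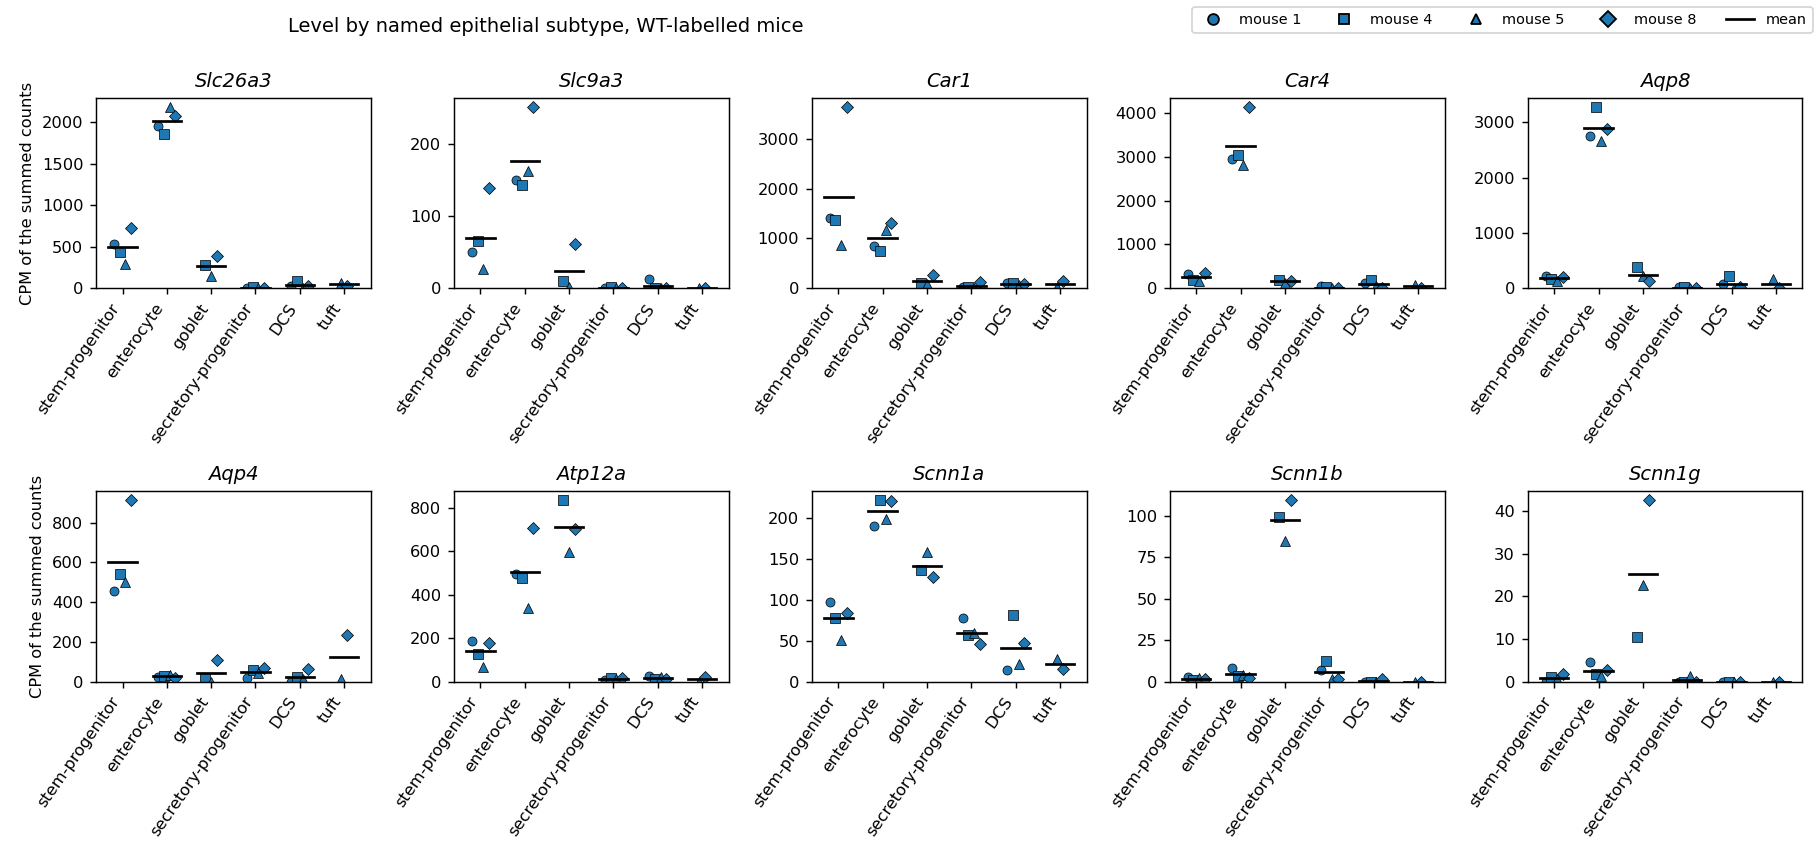
Level of each of the 10 genes (CPM, linear axes from 0 that differ between genes) in the authors' named epithelial subtypes, with 1 point for each WT-labelled mouse that had at least 20 cells of the type and a bar at the mean. Slc26a3, Slc9a3, Car4, Aqp8 and Scnn1a stood highest in enterocytes, Car1 and Aqp4 in stem-progenitor cells, and Atp12a, Scnn1b and Scnn1g in goblet cells.

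Both apical exchangers stood highest in enterocytes. Slc26a3, the chloride-bicarbonate exchanger, measured 1951, 1863, 2180 and 2074 CPM in the enterocytes of WT-labelled mice 1, 4, 5 and 8. In the stem-progenitor cells of the same mice it measured 540, 439, 294 and 728 CPM. Every enterocyte value lay above every stem-progenitor value. Goblet cells followed at 272 ± 122 CPM (SD, n = 3), which overlapped the stem-progenitor range, and tuft, DCS and secretory-progenitor cells stood at 52.3, 39.7 and 9.09 CPM. At least 1 Slc26a3 UMI was seen in 83.1% of enterocytes, and in 70.7% of them once each cell was reduced to 1000 UMIs.

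Slc9a3, the sodium-proton exchanger, was also highest in enterocytes, followed by stem-progenitor and then goblet cells, with fewer counts. Its enterocyte levels were 149.6, 142, 163 and 250.3 CPM in mice 1, 4, 5 and 8, against 49.7, 65.7, 27.1 and 138 CPM in stem-progenitor cells. The 2 types did not overlap, but the highest stem-progenitor value (138 CPM, mouse 8) and the lowest enterocyte value (142 CPM, mouse 4) were close. Detection was 24.8% of enterocytes and 11.3% at 1000 UMIs, so most single enterocytes gave no Slc9a3 count at this depth.

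The 2 carbonic anhydrases stood highest in different types. Car4, a membrane-anchored enzyme that faces outwards, measured 2955, 3038, 2808 and 4124 CPM in enterocytes and 337, 189.7, 169 and 353 CPM in stem-progenitor cells of mice 1, 4, 5 and 8. It was seen in 93.2% of enterocytes and, at 1000 UMIs, in 84.7% of them. Car1, a cytosolic enzyme, went the other way on average, with 841, 740.3, 1177 and 1318 CPM in enterocytes and 1414, 1376, 868 and 3627 CPM in stem-progenitor cells. In mouse 5 Car1 was lower in stem-progenitor cells than in enterocytes, and the 2 ranges overlapped, so the order of these neighbours did not exceed the spread between mice. Stem-progenitor cells were 18.0% of the WT-labelled epithelial cells and held 80.5% of their Car1 UMIs but 17.9% of their Car4 UMIs. These shares also follow the number of UMIs per cell. As mean levels, Car1 stood at 1821 CPM in stem-progenitor cells and 1232 CPM in the whole WT-labelled epithelium. Car4 stood at 262 and 819 CPM.

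The 2 aquaporins stood highest in different types. Aqp8 measured 2759, 3272, 2666 and 2882 CPM in enterocytes and 216, 174, 128 and 212 CPM in stem-progenitor cells, with goblet cells at 391, 226 and 128 CPM in mice 4, 5 and 8. Aqp4 measured 457, 542, 502 and 912 CPM in stem-progenitor cells and 24.9, 28.9, 33.2 and 18.2 CPM in enterocytes of mice 1, 4, 5 and 8. The ranges of the 2 types were far apart for both genes, in opposite directions. Stem-progenitor cells held 87.7% of the Aqp4 UMIs of the WT-labelled epithelium and enterocytes 1.08%, whereas enterocytes held 70.9% of the Aqp8 UMIs. Aqp4 was seen in 58.1% of stem-progenitor cells and 4.24% of enterocytes, and at 1000 UMIs per cell in 27.7% and 1.81%. Single cells could still hold both. Of the 594 stem-progenitor cells with an Aqp8 UMI 254 (42.8%) also had an Aqp4 UMI. Of the 122 enterocytes with an Aqp4 UMI 93 (76.2%) also had an Aqp8 UMI. Both shares were below those of the whole types. An Aqp4 UMI was seen in 1419 of 2378 stem-progenitor cells and an Aqp8 UMI in 2579 of 2870 enterocytes. Tuft cells came next for Aqp4 on average, but at 10.8 and 235 CPM in the 2 mice that had enough of them.

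Atp12a, the catalytic subunit of the colonic proton-potassium pump, was not an enterocyte gene alone. Goblet cells measured 835, 598 and 704 CPM in mice 4, 5 and 8, and enterocytes measured 496, 479, 339 and 708 CPM in mice 1, 4, 5 and 8. The ranges overlapped, because mouse 8 had 704 CPM in goblet cells and 708 CPM in enterocytes. Stem-progenitor cells stood lower at 139.9 ± 54.3 CPM (n = 4). An Atp12a UMI was seen in 66.2% of goblet cells and 48.4% of enterocytes, and in 43.4% and 29.1% at 1000 UMIs.

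The ENaC subunits did not all stand highest in the same cell type, though goblet cells held all of them. Scnn1a, the alpha subunit, measured 189.8, 222, 199 and 220.4 CPM in enterocytes, 136, 158 and 128 CPM in goblet cells of mice 4, 5 and 8, and 77.5 ± 19.5 CPM in stem-progenitor cells (n = 4). It was found in every epithelial subtype, down to 21.1 CPM in tuft cells. Scnn1b, the beta subunit, measured 99.1, 84.8 and 109 CPM in goblet cells and 8.31, 3.44, 3.95 and 2.34 CPM in enterocytes. These goblet values rest on 19, 75 and 18 UMIs, and each of them lay far above every enterocyte value. Scnn1g, the gamma subunit, was the sparsest gene, with 10.4, 22.6 and 42.5 CPM in goblet cells from 2, 20 and 7 UMIs, against 2.55 ± 1.45 CPM in enterocytes.

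The goblet cells that held the beta and gamma subunits were few. The 287 named goblet cells were 2.17% of the 13229 WT-labelled epithelial cells, yet they held 113 of 225 Scnn1b UMIs (50.2%) and 29 of 87 Scnn1g UMIs (33.3%), next to 7.85% of the Atp12a and 3.71% of the Scnn1a UMIs. Stem-progenitor cells, 18.0% of the cells, held 32 of the Scnn1g UMIs (36.8%), more than goblet cells did, and 47 of the Scnn1b UMIs (20.9%). Such shares also follow the number of UMIs per cell, which differed between types. The mean Scnn1g level was 0.816 CPM in stem-progenitor cells and 1.38 CPM in the whole WT-labelled epithelium. For Scnn1b these means were 1.77 and 3.81 CPM. Scnn1b was detected in 30.1% of goblet cells as a mean over mice, and in 9.89% at 1000 UMIs. For scale, B cells, taken here as cells that should lack ENaC, gave an Scnn1b UMI in 0.0884% of 14700 cells at a median depth of 1994 UMIs, against a median of 2900 UMIs in goblet cells. Of the 80 goblet cells with an Scnn1b UMI, 65 also had an Atp12a UMI, 44 had an Scnn1a UMI and 10 had an Scnn1g UMI. A transcript can go unseen in a cell that holds it, and a UMI can stem from another cell's RNA, so these counts are neither lower nor upper limits.

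Among the named cells the top subtype did not depend on how the totals were made. For each of the 10 genes the highest named subtype was the same when cells with at least 50% mitochondrial UMIs were left out, when mitochondrial genes were taken out of the totals and when each mouse was left out in turn. It did depend on the naming for Car1. With cells taken by expression profile, as described further on, Car1 averaged 2547 CPM in enterocyte-profile cells of WT-labelled mice. In their stem-progenitor-profile cells it averaged 1326 CPM.

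Scnn1g and Scnn1b lie 96.6 kb apart on chromosome 7 of the mm10 assembly, both on the plus strand (Scnn1g at chr7:121734479-121768475, Scnn1b at chr7:121865038-121918514), and Aqp8 lies 1543.8 kb further on at chr7:123462291-123468004. The annotation places Slc26a3 at chr12:31390871-31473917, Slc9a3 at chr13:74121457-74169442, Car4 at chr11:84957786-84966044, Atp12a at chr14:56365068-56388550 and Scnn1a at chr6:125320659-125344943, all on the plus strand, and Car1 at chr3:14766216-14808368 on the minus strand. The annotated gene Gm9359 overlaps Slc26a3 and Gm16399 overlaps Car1 on the same strand, and what this did to their counts was not tested.

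Upstream sequences are printed for 3 genes that stood highest in enterocytes (Slc26a3, Car4 and Aqp8) and for the neighbouring pair that peaked in goblet cells (Scnn1b and Scnn1g). Each is the 250 bases before the RefSeq start site on GRCm38.p6, plus strand, 5′ to 3′, and capitals mark a match to 1 of the 4 motifs searched. For Slc26a3 this start, chr12:31438219, lies inside the gene interval given above, so its 250 bases are within the annotated gene.
Slc26a3, chr12:31437969-31438218: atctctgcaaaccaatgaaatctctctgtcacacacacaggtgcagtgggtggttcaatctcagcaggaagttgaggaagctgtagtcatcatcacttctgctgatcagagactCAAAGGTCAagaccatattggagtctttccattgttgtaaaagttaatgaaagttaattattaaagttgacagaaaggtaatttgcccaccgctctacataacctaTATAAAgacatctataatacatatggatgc
Car4, chr11:84957504-84957753: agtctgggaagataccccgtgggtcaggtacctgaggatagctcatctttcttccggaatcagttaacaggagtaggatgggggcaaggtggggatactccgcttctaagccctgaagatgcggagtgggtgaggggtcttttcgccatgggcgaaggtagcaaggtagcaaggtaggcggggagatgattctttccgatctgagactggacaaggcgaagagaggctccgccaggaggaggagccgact
Aqp8, chr7:123462044-123462293: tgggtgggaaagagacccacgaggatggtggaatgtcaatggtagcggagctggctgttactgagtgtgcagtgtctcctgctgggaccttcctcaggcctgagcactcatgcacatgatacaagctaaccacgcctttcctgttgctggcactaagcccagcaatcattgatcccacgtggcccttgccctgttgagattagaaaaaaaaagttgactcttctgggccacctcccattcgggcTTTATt
Scnn1g, chr7:121734229-121734478: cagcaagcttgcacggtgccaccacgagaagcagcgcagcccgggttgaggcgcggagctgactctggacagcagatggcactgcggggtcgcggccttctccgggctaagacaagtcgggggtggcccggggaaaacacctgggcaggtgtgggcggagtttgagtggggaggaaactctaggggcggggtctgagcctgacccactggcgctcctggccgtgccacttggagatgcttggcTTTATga
Scnn1b, chr7:121864788-121865037: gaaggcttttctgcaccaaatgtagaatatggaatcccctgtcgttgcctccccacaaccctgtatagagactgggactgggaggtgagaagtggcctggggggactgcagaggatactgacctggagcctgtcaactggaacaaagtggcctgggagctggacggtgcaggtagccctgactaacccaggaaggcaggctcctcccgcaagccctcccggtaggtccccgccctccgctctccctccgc

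The motifs were searched on both strands. They were TTTAT, the core of the site of the intestinal CDX factors, and CAAAGNNCA, a core of the HNF4 site. The other two were the TATA box, spelled TATAAA, and the letters AGATAA, known as a site of a family of zinc finger factors. Slc26a3 held CAAAGNNCA from 136 to 128 bases before the start, a match found in 5.49% of 32851 RefSeq sequences of the same length. It also held TATAAA from 30 to 25 bases before the start, as did 12.4% of them, and this match overlaps a TTTAT on the minus strand. TTTAT, which 37.3% of the sequences hold, lay from 6 to 2 bases before the start in Aqp8 and from 7 to 3 bases before it in Scnn1g. Car4 and Scnn1b held none of the 4 motifs in these 250 bases, and neither did Slc9a3, which was the sixth member in the table and is not printed. A match is a run of letters and not a measured binding site.

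Within the named types the levels also differed with the share of a cell's UMIs that came from the 10 colonocyte markers. Cells of each mouse were ranked by that share and cut into 3 equal parts, with mitochondrial genes left out of the totals, since with those genes counted the median mitochondrial share of the mice's enterocytes was 25.8% to 55.5% in the lowest part and 13.8% to 30.8% in the highest. Such parts are ranges of a score and not cell types.

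In stem-progenitor cells the mean level of 7 members was higher in each further part, and that of Aqp4 was not. In mouse 4 alone Slc9a3 did not follow the mean, with 2.89, 0 and 188 CPM. How far cells like enterocytes made up the highest part was not tested. From the lowest to the highest part, the mean level over 4 mice went from 30.8 through 206 to 1445 CPM for Slc26a3 and from 1.33 through 16.3 to 209 CPM for Slc9a3. Car1 went from 87.8 through 808 to 5108 CPM, Car4 from 11.7 through 48.4 to 824 CPM, and Aqp8 from 11.7 through 33.3 to 572 CPM. Atp12a went from 5.14 through 26.7 to 429 CPM and Scnn1a from 25.4 through 56.2 to 185 CPM. The highest part stood above the lowest in 4 of 4 mice for each of these 7 genes.

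Aqp4 had a different course in those cells. In mouse 1 it measured 301, 1082 and 466 CPM from the lowest to the highest part, and in mouse 8 it measured 716, 1577 and 785 CPM. In mice 4 and 5 it measured 198, 801 and 908 CPM and 229.5, 819 and 885 CPM. The middle part was the highest in 2 of 4 mice and the highest part in the other 2, and the lowest part was the lowest in all 4. Aqp4 was thus already at 361 ± 241 CPM (SD, n = 4) in the part where Slc26a3, Car4 and Aqp8 were near their minimum.

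**Figure D2:**
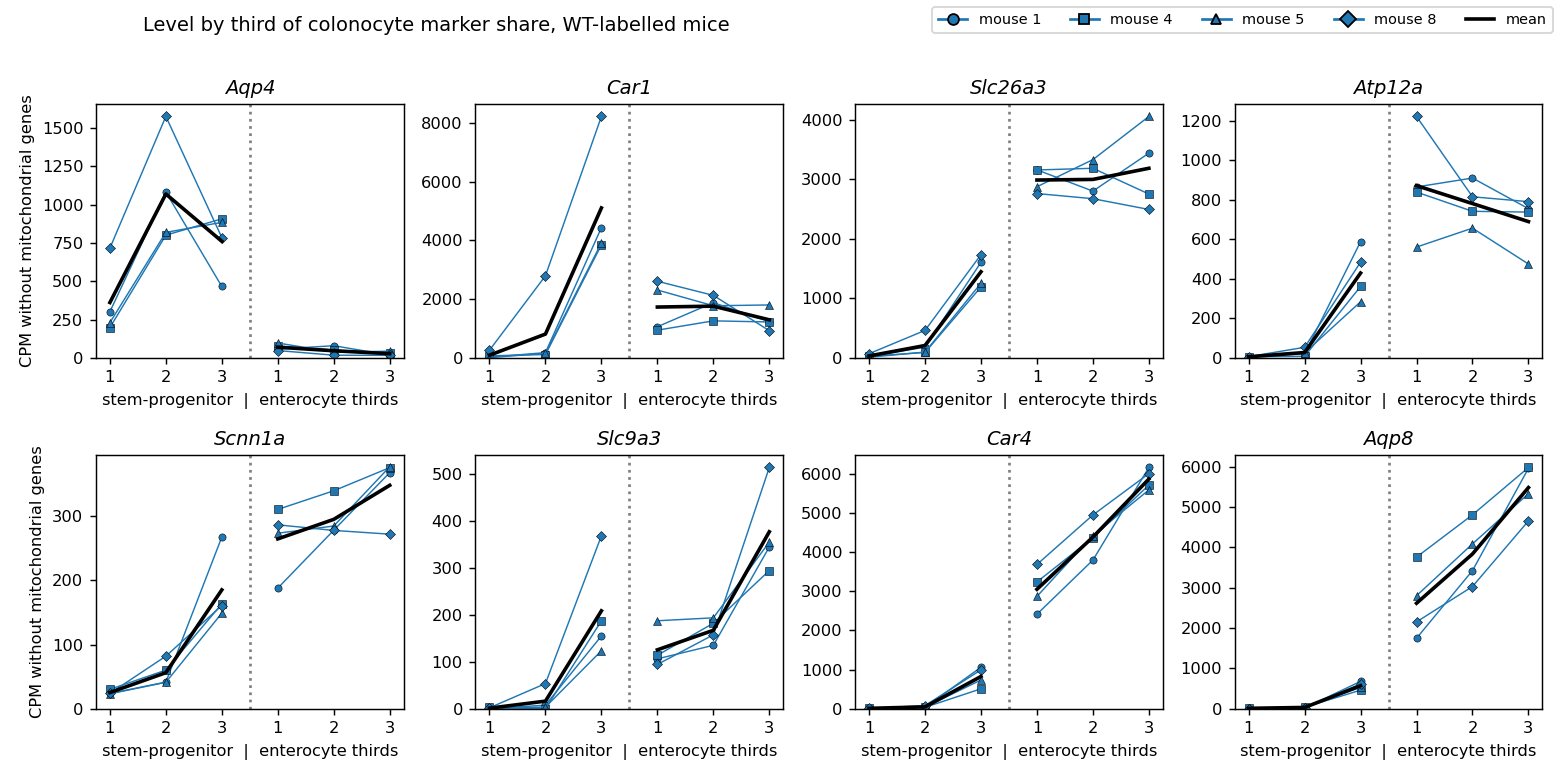
Level (CPM without mitochondrial genes, linear axes from 0) of 8 members in 3 equal parts of the named stem-progenitor cells and of the named enterocytes, ranked within each WT-labelled mouse by the share of colonocyte marker UMIs, with points for the 4 mice and a black line for their mean. Across the enterocyte parts Aqp4 went from 69.3 to 26.7 CPM and Aqp8 from 2615 to 5481 CPM.

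In enterocytes the water channels and exchangers parted again. Aqp8 went from 2615 through 3836 to 5481 CPM, Car4 from 3048 through 4379 to 5860 CPM and Slc9a3 from 126 through 167 to 377 CPM, each higher in the highest than in the lowest part in 4 of 4 mice. The mean log2 differences were 1.12 ± 0.47 for Aqp8, 0.96 ± 0.28 for Car4 and 1.60 ± 0.64 for Slc9a3 (SD, n = 4). Slc26a3 stayed between 2986 and 3184 CPM, with 2 mice up and 2 down. Aqp4 went from 69.3 through 45.8 to 26.7 CPM, lower in 4 of 4 mice (log2 difference -1.40 ± 0.23), and Atp12a ran from 871 to 689 CPM, also lower in 4 of 4 mice (-0.31 ± 0.21). Scnn1a was higher in 3 of 4 mice (0.41 ± 0.43) and Car1 in 2 of 4 (-0.32 ± 0.85).

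The choice of totals mattered for the smaller of these differences. With mitochondrial genes counted, Slc26a3 and Scnn1a were higher in the highest part in 4 of 4 mice (0.45 ± 0.25 and 0.98 ± 0.60), and Atp12a and Car1 in 3 of 4, with means of 0.35 ± 0.38 and 0.29 ± 0.89. The directions of Aqp8, Car4, Slc9a3 and Aqp4 did not change. In all 8 mice cells were also taken by expression profile, as described further on, with mitochondrial genes left out. There Aqp8, Car4, Slc9a3 and Car1 were higher in the highest part in 8 of 8, and Aqp4 in 4 of 8. Slc26a3 and Scnn1a were higher in 7 of 8 and Atp12a in 5 of 8, unlike in the named enterocytes for Slc26a3 and Atp12a.

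Outside the epithelium the members were seen at low levels in every large class. Aqp8 stood at 41.3 CPM in B cells, 27.5 in T cells, 19.8 in macrophages, 18.3 in blood vessel endothelium and 13.4 in fibroblasts, pooled over mice, against 694 CPM in the epithelium. An Aqp8 UMI was seen in 9.29% of B cells and 4.98% of fibroblasts, with median depths of 1994 and 4035.5 UMIs per cell, and in 45.2% of epithelial cells at 1743. Lymphocytes and fibroblasts are not known to make this channel, so these shares serve here as the background, and the source of these UMIs was not tested.

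**Figure D3:**
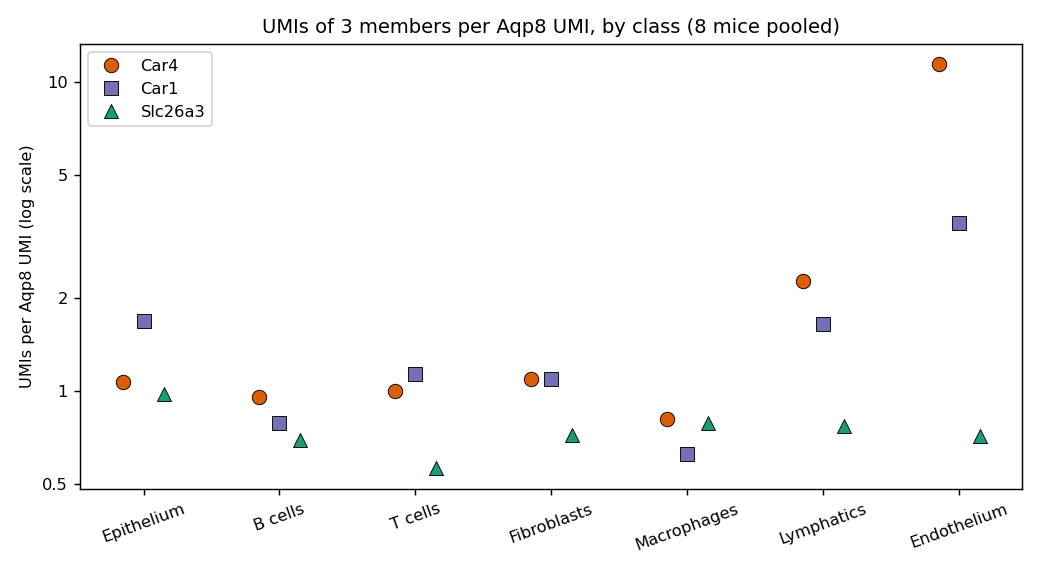
UMIs of Car4, Car1 and Slc26a3 per UMI of Aqp8 in each class of cells pooled over mice (log axis). Endothelium stood apart for Car4 at 11.4 and was highest for Car1 at 3.50, both set against only 14 Aqp8 UMIs. Slc26a3 lay between 0.561 and 0.981 in the classes shown.

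Car4 in blood vessel endothelium was above that background. Its level there was 209.6 CPM (95% Poisson interval 178 to 245, counting error only), beside 39.4 CPM in B cells, 27.6 in T cells, 16.1 in macrophages and 14.6 in fibroblasts. Set against Aqp8, Car4 gave 0.954 UMIs per Aqp8 UMI in B cells, 1.00 in T cells, 1.10 in fibroblasts, 0.812 in macrophages and 1.07 in the epithelium itself. In the 265 endothelial cells it gave 11.4, from 160 Car4 UMIs against 14 Aqp8 UMIs. A Car4 UMI was found in 26.8% of endothelial cells. The ratio to Aqp8 was not the same in all classes for the other members: Aqp4 gave 0.475 UMIs per Aqp8 UMI in the epithelium, 0.144 in B cells and 0.100 in macrophages, and Car1 gave 0.787 in B cells. Among mice with at least 20 such cells, Car4 measured 259.8, 143 and 198 CPM in KO-labelled mice 3, 6 and 7 and 105, 279 and 159 CPM in WT-labelled mice 4, 5 and 8, so it was present in each of them. These cells carried 6001 ± 1312 CPM (n = 6) of the endothelial markers Pecam1, Cdh5, Kdr and Plvap. Car4 is an established capillary enzyme in lung and muscle. Lymphatic cells were next at 2.27 Car4 UMIs per Aqp8 UMI. Car1 gave 3.50 UMIs per Aqp8 UMI in endothelium from 49 UMIs, against 1.68 in the epithelium. A Car1 UMI was found in 9.43% of endothelial cells and 8.88% of B cells, at pooled levels of 64.2 and 32.5 CPM. Detection of Car1 in endothelium was thus close to that in B cells.

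The comparison that the study was built for, KO-labelled against WT-labelled mice, was made on UMIs summed per mouse with edgeR's quasi-likelihood test, with the mouse as the replicate and Benjamini-Hochberg adjustment over all genes tested. In the summed epithelium none of 11723 genes reached an adjusted p under 0.05, 0.819% did so unadjusted (96 genes), and the count by DESeq2 was 0. All 10 members could be tested there, and for none of them did the 4 KO-labelled values separate from the 4 WT-labelled ones, against 0.742% of all genes tested. Each member had an adjusted p of 0.99993.

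Sums over the whole epithelium also move with the mix of its cells, so the per-mouse values come first. Slc26a3 measured 623, 820.2, 641 and 626 CPM in KO-labelled mice 2, 3, 6 and 7 and 711, 856, 484 and 757 CPM in WT-labelled mice 1, 4, 5 and 8. The groups covered the same range, and the log2 fold change was near 0 with a 95% confidence interval from -0.74 to 0.73. Slc9a3 measured 70.9, 77.3, 39.2 and 11.9 CPM in the former and 60.9, 81.0, 38.3 and 128 CPM in the latter. Here the lowest value was KO-labelled mouse 7 and the highest WT-labelled mouse 8, with a log2 fold change of -0.36 ± 0.62 (SE).

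Car1 measured 429, 515, 821 and 1147 CPM with the KO label, against 634, 849, 663 and 2780 CPM with the WT label. Its log2 fold change, -0.71 ± 0.38 (SE), leaned on mouse 8 and was -0.16 without it. Aqp4 measured 155, 258, 303 and 80.4 CPM against 181, 245, 277 and 679 CPM, and its fold change of -0.62 ± 0.44 became -0.25 without mouse 8. Mouse 8 was the high value for both genes, and the other 3 WT-labelled mice lay inside the KO-labelled range.

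Car4 measured 1010, 767, 482 and 481 CPM in KO-labelled mice and 953, 1118, 505 and 701 CPM in WT-labelled ones, and Aqp8 measured 1071, 894, 532 and 369.8 CPM against 821, 1213, 469 and 464 CPM. For both genes the 4 mice numbered 1 to 4 all stood above the 4 numbered 5 to 8, whatever their label, and the log2 fold changes were -0.13 ± 0.51 and 0.08 ± 0.58 (SE). For Aqp8 the plain means, 717 CPM with the KO label and 742 CPM with the WT label, lay the other way round from the fold change, which follows the means after TMM scaling (835 and 789 CPM), so no direction is read from it. Atp12a measured 142, 192, 243 and 289 CPM against 188, 225, 117 and 211 CPM. Scnn1a measured 77.3, 86.7, 62.0 and 67.0 CPM against 84.7, 112, 71.7 and 91.2 CPM. For Atp12a and Scnn1a too the groups overlapped. Scnn1b measured 3.36, 1.22, 6.88 and 4.74 CPM against 3.11, 3.69, 5.96 and 2.49 CPM. Scnn1g measured 1.26, 0.609, 3.12 and 2.46 CPM against 0.996, 1.02, 1.68 and 1.85 CPM, so that KO-labelled mouse 3 was lowest and mouse 6 highest for both of these subunits.

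**Figure D4:**
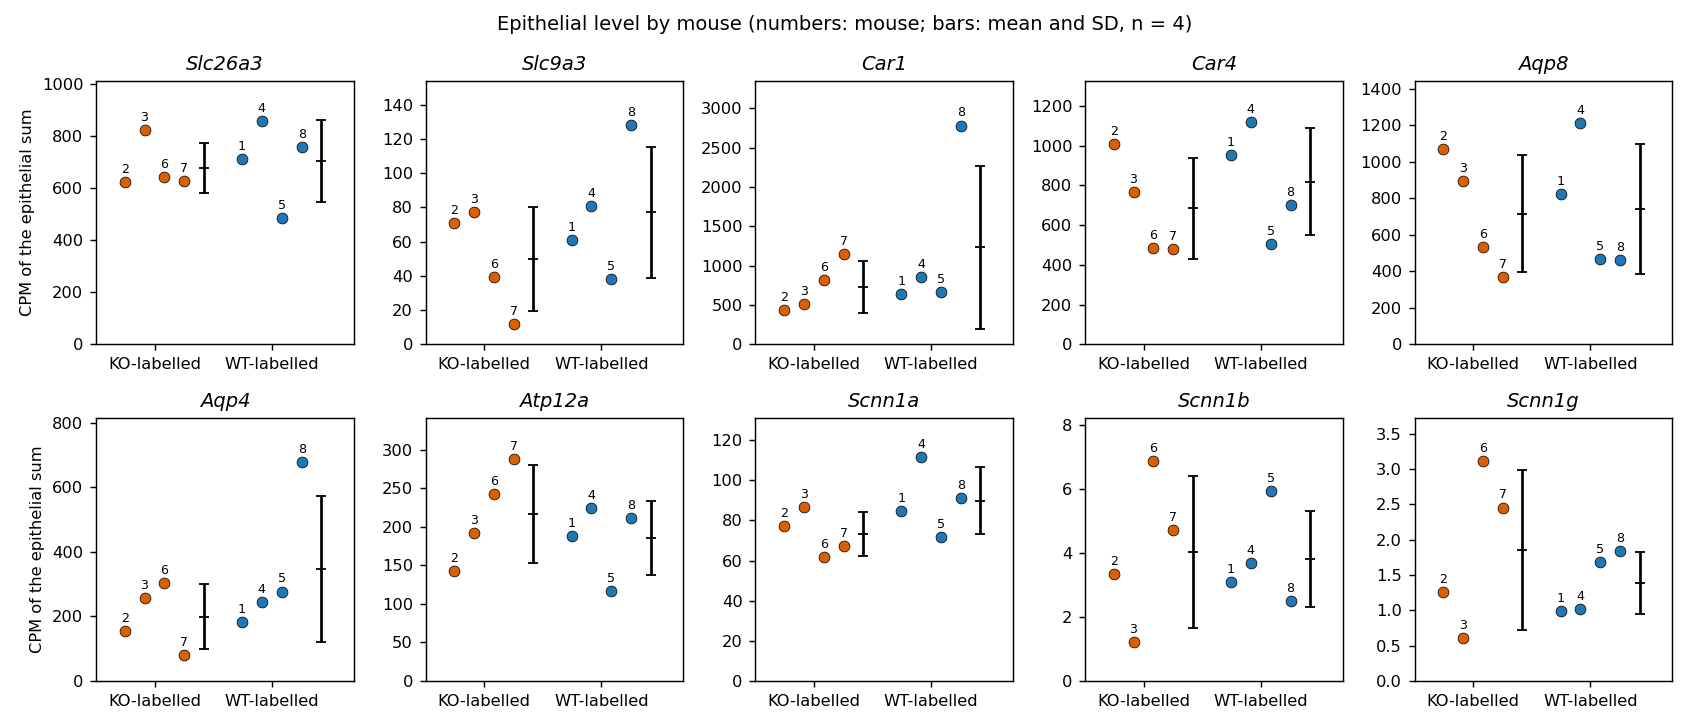
Level (CPM, linear axes from 0) of each member in the summed epithelial cells of each mouse, KO-labelled mice 2, 3, 6 and 7 beside WT-labelled mice 1, 4, 5 and 8, with points labelled by mouse and bars for the mean and SD (n = 4). The groups overlapped for all 10 genes, and WT-labelled mouse 8 stood highest for Car1 and Aqp4.

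To narrow the mix of cells, each epithelial cell with under 50% mitochondrial UMIs was assigned to the authors' named subtype whose profile its counts fitted best, with the members left out of that decision. The assignment returned the authors' name for 86.4% of 5658 named cells, from 98.1% of enterocytes to 75.4% of stem-progenitor cells. Of 2216 named stem-progenitor cells 449 went to the enterocyte profile, so the enterocyte-profile sums also hold cells that the authors call stem-progenitor. It gave 4845 enterocyte-profile cells (321 to 1153 per mouse) and 4068 stem-progenitor-profile cells (168 to 900 per mouse).

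In enterocyte-profile cells 9 of the 10 members passed the filter on low counts, none of 7732 genes passed the adjusted threshold and 196 (2.53%) were under 0.05 unadjusted, with a count of 0 by DESeq2. No member had separate groups, against 2.00% of all genes. Slc26a3 measured 1246, 2367, 2358 and 2469 CPM in KO-labelled mice 2, 3, 6 and 7 and 2078, 1927, 2306 and 2012 CPM in WT-labelled mice 1, 4, 5 and 8. KO-labelled mouse 2 was the low value and the other 3 lay above every WT-labelled mouse, with a log2 fold change whose 95% confidence interval ran from -0.43 to 0.44. Car4 measured 2586, 2384, 2107 and 2485 CPM against 2872, 3019, 2941 and 2437 CPM, with an interval from -0.63 to 0.16. Aqp8 measured 2689, 2849.8, 2324 and 1801 CPM against 2561, 3109.8, 2682 and 1667 CPM, with an interval from -0.61 to 0.50. Scnn1a measured 152, 204, 159 and 183 CPM against 227, 244, 216 and 192 CPM, with an interval from -0.71 to 0.04. None of these 4 intervals reached below -0.71 or above 0.50.

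The other members were less well bounded. Slc9a3 measured 176, 281, 143 and 51.4 CPM in the former group and 209, 179, 171 and 345 CPM in the latter, with an interval from -1.24 to 0.44. Aqp4 measured 62.8, 118, 63.6 and 3.21 CPM against 136, 68.4, 27.8 and 251 CPM, with an interval from -2.26 to 0.56. Car1 measured 817, 1179, 1963 and 2937 CPM against 1576, 1429.8, 2188 and 4995 CPM, with an interval from -1.38 to 0.29. KO-labelled mouse 7 was lowest for Slc9a3 and Aqp4 and WT-labelled mouse 8 highest for all 3. In the named enterocytes of mouse 8, without such a limit on mitochondrial UMIs, Car1 stood at 1318 and Aqp4 at 18.2 CPM, far below the 4995 and 251 CPM of its enterocyte-profile cells. These 2 genes were high in its named stem-progenitor cells (3627 and 912 CPM), and the part of such cells in the values of the enterocyte profile was not tested. Atp12a measured 268, 524, 759 and 1108 CPM against 553, 547, 414 and 669 CPM, so the KO-labelled mice enclosed the WT-labelled ones. In enterocyte-profile cells B cell markers summed to 66.4 to 732 CPM over KO-labelled mice and 11.3 to 179 CPM over WT-labelled mice, and their part in these values was not tested.

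**Figure D5:**
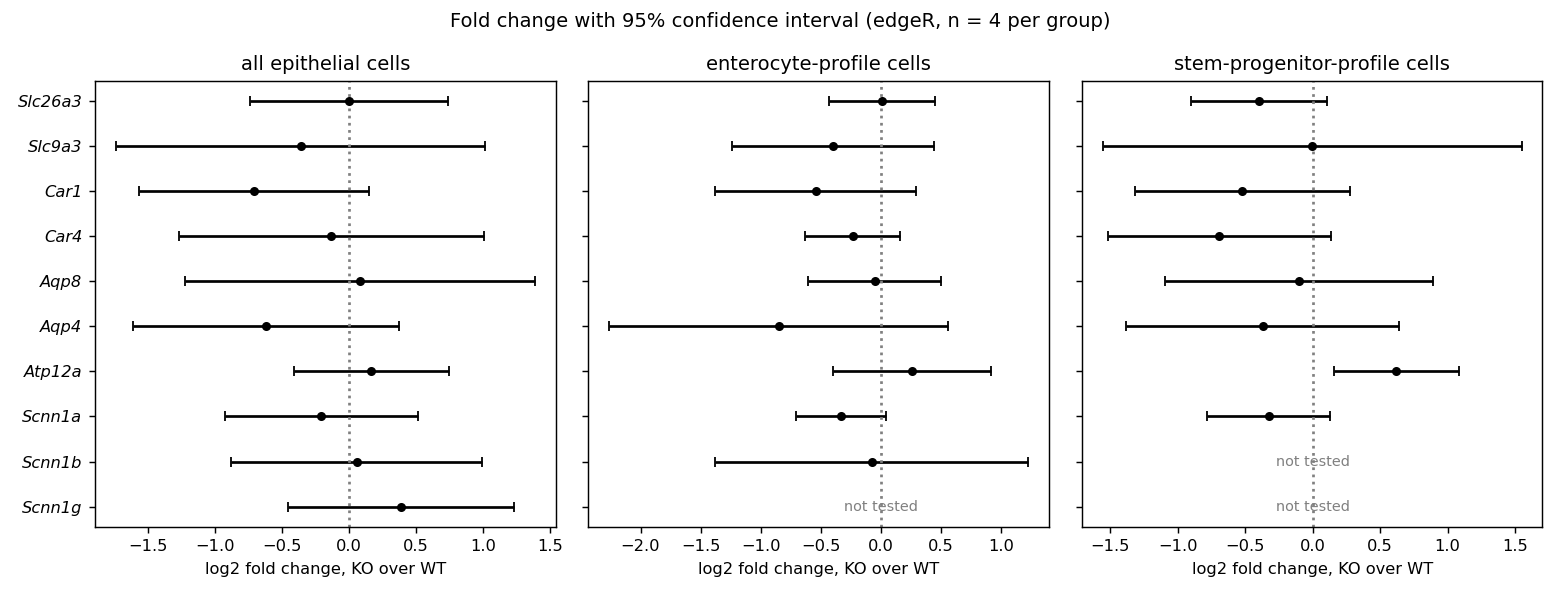
Log2 fold change of KO-labelled over WT-labelled mice for each member, with its 95% confidence interval from edgeR (n = 4 mice per group), in all epithelial cells, enterocyte-profile cells and stem-progenitor-profile cells. Every interval holds 0 except that of Atp12a in stem-progenitor-profile cells, which ran from 0.16 to 1.08 with an adjusted p of 0.999665.

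In stem-progenitor-profile cells 8 members were tested among 10544 genes, of which none passed by edgeR, 187 (1.77%) were under 0.05 unadjusted, and DESeq2 called 1 that is not a member. No member had separate groups, against 1.44% of all genes. Atp12a measured 57.5, 58.5, 77.9 and 115 CPM in the KO-labelled mice and 67.7, 46.5, 50.9 and 40.7 CPM in the WT-labelled mice. The 2 lowest KO-labelled values lay below WT-labelled mouse 1, and the log2 fold change was 0.62 ± 0.21 (SE, edgeR quasi-likelihood test, unadjusted p = 0.0125, adjusted p = 0.999665). Aqp4 measured 845, 855, 501 and 112 CPM against 691, 660.0, 575 and 1083 CPM, with KO-labelled mouse 7 far below the rest and an interval from -1.38 to 0.64. In the same mouse Slc9a3 stood at 2.17 CPM, against 15.2 to 117 CPM in the other 3 KO-labelled mice and 20.1 to 61.0 CPM in the WT-labelled mice. Car4 measured 116, 49.0, 34.2 and 45.5 CPM against 56.8, 149, 103 and 68.7 CPM, with a log2 fold change of -0.69 ± 0.38 (SE) and an interval from -1.52 to 0.14.

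The other tested members overlapped as widely in these cells. Slc26a3 measured 254, 296, 164 and 205 CPM in KO-labelled mice 2, 3, 6 and 7 and 265, 357, 219 and 364 CPM in WT-labelled mice 1, 4, 5 and 8, with an interval from -0.90 to 0.11. Car1 measured 1309, 816, 678 and 899 CPM against 1025, 1037, 676 and 2564 CPM, where mouse 8 was again the high value and the fold change of -0.52 became 0.029 without it. Scnn1a measured 59.0, 57.9, 35.2 and 41.7 CPM against 75.1, 61.6, 46.8 and 57.5 CPM, with an interval from -0.78 to 0.13. Aqp8, at 112, 62.1, 53.2 and 55.8 CPM against 60.9, 143, 75.7 and 19.8 CPM, had its lowest and its highest value both among the WT-labelled mice.

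Across the members the median log2 fold change was -0.07 in the epithelium, -0.24 in enterocyte-profile cells and -0.35 in stem-progenitor-profile cells, beside 0.0022, -0.014 and -0.0013 over all genes tested. In enterocyte-profile cells 7 of the 9 tested members had a negative sign and in stem-progenitor-profile cells 7 of 8, where 4103 of 7732 and 5308 of 10544 of all genes tested were negative. The members were measured in the same mice, so their signs are not independent observations. The 3 comparisons share the same 8 mice. Within mice 1 to 4 alone, Slc9a3, Aqp4, Atp12a and Scnn1b turned sign in the epithelium (0.22, 0.07, -0.17 and -0.34), and within mice 5 to 8 alone the values of Slc9a3 and Aqp4 were -1.72 and -1.36, with no adjusted p of a member under 0.05 in either set.

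Goblet-profile cells were not tested and are given as values for the 7 mice with at least 20 of them (mouse 1 had 8). Scnn1b measured 65.6, 75.5, 84.5 and 110.2 CPM in KO-labelled mice 2, 3, 6 and 7 and 88.2, 63.4 and 92.6 CPM in WT-labelled mice 4, 5 and 8. The beta subunit was thus seen in the goblet-profile cells of both groups, in overlapping ranges. Scnn1g measured 14.6, 16.8, 28.2 and 14.7 CPM against 14.1, 16.8 and 34.1 CPM. Atp12a measured 415, 588, 692 and 544 CPM against 706, 515 and 711 CPM, and Scnn1a 233, 134, 128 and 118 CPM against 134, 150.1 and 112 CPM. In each of these 4 genes the 2 sets of mice covered overlapping ranges.

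Car4 in blood vessel endothelium could be compared in 3 mice a group. Its log2 fold change was -0.12 ± 0.36 (SE, interval -0.91 to 0.67, adjusted p = 0.995157 by edgeR), with plain means of 200.3 CPM for the KO label and 181 CPM for the WT label. The fitted sign and the means point in opposite directions, and no direction is read from either. It was the only member that passed the filter, and its groups overlapped, while 10.1% of the 1533 genes tested there had separate groups. Of those genes 0 passed by edgeR or DESeq2, and 72 (4.70%) were under 0.05 before adjustment. B cell markers in these cells ran from 77.9 to 17054 CPM over KO-labelled mice and from 35.3 to 900 CPM over WT-labelled mice, and their part in the result was not tested.

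The other genes of the pathway were followed as 6 lists of 40 genes in all, and none passed an adjusted p of 0.05 in any of the 4 comparisons. Among apical exchangers and scaffolds, 6 of 8 were tested in the epithelium and all had negative signs, with a median log2 fold change of -0.07. Slc26a2, a sulfate and anion exchanger, stood at 1578 ± 226 CPM in enterocytes and 963 ± 209 CPM in stem-progenitor cells. Slc9a3r1 (NHERF1), the scaffold that binds Slc9a3 at the brush border, stood at 444 ± 42.5 and 167 ± 39.7 CPM, and Slc9a2, another apical sodium-proton exchanger, at 315 ± 41.8 and 97.5 ± 26.7 CPM. These 3 were highest in enterocytes, like Slc26a3 and Slc9a3.

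Of the basolateral exit genes all 8 were tested, 2 with positive and 6 with negative signs and a median of -0.10. Atp1b1, the beta subunit of the sodium pump, stood at 1771 ± 79.8 CPM in enterocytes and 1553 ± 226 CPM in stem-progenitor cells. Fxyd4, a regulator of that pump known from the colon, stood at 93.6 ± 35.0 and 186 ± 120.5 CPM.

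Among regulators of ENaC all 9 were tested (5 positive, 4 negative, median 0.02), and their levels were not ordered alike across the types. Hsd11b2, which inactivates glucocorticoids and so leaves the mineralocorticoid receptor to aldosterone, stood at 746 ± 96.6 CPM in goblet cells (n = 3), 671 ± 271 in secretory-progenitor cells, 191 ± 20.8 in stem-progenitor cells and 19.2 ± 8.73 in enterocytes. Goblet cells were thus high for Hsd11b2 as they were for Scnn1b and Scnn1g. Sgk1, a kinase that keeps ENaC at the membrane, went the other way with 242 ± 155 CPM in enterocytes and 46.5 ± 43.9 in goblet cells, and St14, an epithelial serine protease, stood at 333 ± 49.1 and 241 ± 55.6 CPM.

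Of the other carbonic anhydrases 5 of 6 were tested (1 positive, 4 negative, median -0.17). Car2, the fast cytosolic enzyme, stood at 992 ± 220 CPM in stem-progenitor cells and 185 ± 67.8 CPM in enterocytes. The mean of Car1 was also higher in named stem-progenitor cells, but with overlapping ranges. In profile cells of WT-labelled mice the genes parted. Car2 averaged 1062 CPM in stem-progenitor-profile and 384 CPM in enterocyte-profile cells, and Car1 averaged 1326 and 2547 CPM. Car9 and Car12 stood at 22.7 and 7.57 CPM over the epithelium. Other aquaporins were scarce, with Aqp11 at 11.6 and Aqp1 at 7.86 CPM, and 2 of 5 passed the filter. Of the 4 genes of short-chain fatty acid uptake 3 had positive and 1 a negative sign (median 0.14). Slc5a8, the sodium-coupled butyrate carrier, stood at 366 ± 31.2 CPM in stem-progenitor cells and 115 ± 31.7 in enterocytes, and Slc16a1 (MCT1) and its chaperone Bsg at 233 ± 27.9 and 677 ± 85.3 against 160.0 ± 46.1 and 375 ± 72.8 CPM.

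Genes with patterns most like each member were ranked by Pearson's r of log2(CPM + 1) over 21 sums of a WT-labelled mouse and a subtype, among 7693 genes with a mean of at least 10 CPM. The sums share mice and cell types, so r is a description. Car4 and Aqp8 were each other's closest gene (r = 0.97), followed for Aqp8 by Ces2c (0.97) and Clca4a (0.95) and for Car4 by Mcur1 (0.95) and Ces2a (0.94). Slc26a3 was closest to Prdx6 (0.98), Cyp2c55 (0.96, itself a colonocyte marker used here) and 2200002D01Rik (0.96). Slc9a3 was closest to Nudt4 (0.94), B4galt1 (0.94) and the dicarboxylate carrier Slc13a2 (0.93).

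Car1 was closest to Dpep1 (0.93), Ly6a (0.93) and Selenbp1 (0.93). Aqp4 had less close companions in Kitl (0.86), Hao2 (0.85) and Letm1 (0.85), and its r with the other 9 members ran from -0.18 to 0.49. Atp12a was closest to Phgr1 (0.94), Lgals3 (0.93) and Ccdc71l (0.93), Scnn1a to Plk3 (0.91), 2010109I03Rik (0.91) and Ablim1 (0.91), and Scnn1b to Vill (0.90), Liph (0.85) and Plcl2 (0.85). Scnn1g had 85 UMIs in these sums, under the 200 set for naming companions, and its r with Scnn1b was 0.84.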

How the data were processed

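Single-cell libraries of distal colonic mucosa from 8 mice (4 KO-labelled, 4 WT-labelled) were read from the deposited table of raw UMI counts, 31053 genes by 53080 cells, made with Cell Ranger 3.0.2 and mm10 per the submitters' processing notes. The deposited size factors, a ratio of each cell's total to the geometric mean of all totals, matched the counts for all 53080 cells (tolerance 1e-06) once cells were sorted by mouse and barcode, and for 16 in file order. How cells were filtered, clustered and named is not given in the sources used here. No doublet caller was run; 1316 cells with a doublet name in the authors' annotation were not used.

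The 10 members, the pathway lists and the marker lists were chosen with earlier results of these data known. Genes outside the members were named by a rule: the 3 most abundant of each pathway list in the epithelium and the 3 most like each member with at least 200 UMIs. One gene that this rule names is not reported here. UMIs were summed per mouse and type (at least 20 cells). Cells of the epithelial class under 50% mitochondrial UMIs (13 genes) were assigned to the named subtype of highest multinomial likelihood, from named cells of the other mice, without the members, the pathway lists or mitochondrial genes. Detection at 1000 UMIs was computed as the chance of at least 1 UMI in that many drawn from a cell.

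Comparisons used edgeR 4.0.16 (quasi-likelihood F test, TMM normalization, filterByExpr, Benjamini-Hochberg over all genes tested, adjusted p 0.05) in R 4.3.3, checked on simulated counts, with DESeq2 1.42.0 as an alternative. Fold changes are KO-labelled over WT-labelled on the log2 scale. With 4 mice a group, and 3 in endothelium, p-values set the difference between groups against the spread between mice. Poisson intervals cover counting error only. Promoter sequences came from RefSeq (GRCm38.p6), which held 6 of the 10 members, and gene positions from the GENCODE mouse annotation of mm10. Python 3.11.15, pandas 2.3.3, scipy 1.17.1 and matplotlib 3.10.9 were used.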

Additional observations from a re-analysis of the deposited data

Results flagged for a closer look

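Each gene's level was screened in every group of 4 mice with at least 50 UMIs for a mouse whose gap to its nearest neighbour, as a share of the group's range, exceeded Dixon's 95% critical value. Of 82 groups 6 held such a mouse, and chance gives about 1 in 20. Car1 in the WT-labelled epithelium measured 2780 CPM in mouse 8, with 849 CPM next, and in the named secretory-progenitor cells it measured 133 CPM in the same mouse, with 26.5 CPM next. Slc26a3 measured 820.2 CPM in the epithelium of KO-labelled mouse 3, with 641 CPM next. KO-labelled mouse 2 stood apart 3 times: low for Slc26a3 in enterocyte-profile cells (1246 CPM, with 2358 next), high for Scnn1a in goblet-profile cells (233 CPM, with 134 next) and high for Aqp8 in stem-progenitor-profile cells (112 CPM, with 62.1 next).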

How the results depend on the processing

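No paired analysis was possible because each mouse number occurs in 1 group only. With mice 1 to 4 against 5 to 8 as a term in the fit, 0 genes passed in each of the 4 comparisons (203, 256, 283 and 72 unadjusted in epithelium, enterocyte-profile, stem-progenitor-profile and endothelial cells, against 96, 196, 187 and 72 without the term), no member changed sign, and epithelial Slc9a3 stood at -0.72. No member passed an adjusted p of 0.05 by edgeR or DESeq2 under any alternative (lowest 0.779, Atp12a in stem-progenitor-profile cells). Of 69 counts recomputed under the alternatives 59 stayed within 1.5 times and 10 did not. Of 554 single values 476 were counted as the same, 57 as reversed and 21 as moved. A fold change was the same if it kept sign and call. A difference between parts was reversed if it turned sign where all mice had agreed. Otherwise a level or difference was the same if it shifted by less than the SD over mice. Without mitochondrial genes Car1 across enterocyte parts went from 0.29 to -0.32 and counted as the same. Atp12a went from 0.35 to -0.31 and counted as moved. Counts of genes passing, 0 in each comparison, became 4 in the epithelium of mice 5 to 8 alone. In enterocyte-profile cells they became 3 without a filter and 2 in mice 1 to 4 alone, and in stem-progenitor-profile cells 1 by DESeq2 and 5 without a filter. In endothelium they became 45 without a filter and ranged from 0 to 7 with 1 mouse left out, the 7 without KO-labelled mouse 3. The 5 members higher in the highest enterocyte part in every mouse became 3 without mitochondrial genes, 9 in stem-progenitor cells and 5 to 8 with 1 mouse left out (8 without mouse 8). In the epithelium the sign turned for Slc26a3 with median-ratio factors or DESeq2 (0.0085 in both), in mice 1 to 4 (0.016) and without mitochondrial genes (0.0022). It also turned for Aqp8 in mice 5 to 8 (-0.13) and in cells under 50% mitochondrial UMIs (-0.020), and in mice 1 to 4 for Slc9a3 (0.22), Aqp4 (0.074), Atp12a (-0.17) and Scnn1b (-0.34). In enterocyte-profile cells it turned for Slc26a3 without a filter (-0.019), in mice 1 to 4 (-0.13) and at a 25% mitochondrial limit (-0.013), in mice 1 to 4 for Slc9a3 (0.26) and Atp12a (-0.45), and in mice 5 to 8 for Scnn1b (0.59). In stem-progenitor-profile cells Slc9a3 turned with median-ratio factors (0.016), DESeq2 (0.21) and without the authors' cluster 16 (0.036), a choice made after seeing the data. Across parts, the Aqp4 difference was 0.16 in enterocyte-profile cells and 1.40 in stem-progenitor cells. With 1 mouse left out, epithelial values ran from -0.19 to 0.15 for Slc26a3, -0.68 to 0.10 for Car4, -0.47 to 0.44 for Aqp8, -0.18 to 0.33 for Scnn1b and -0.046 to 0.31 for Atp12a. Enterocyte-profile values ran from -0.071 to 0.17 for Slc26a3, -0.24 to 0.10 for Aqp8, -0.35 to 0.35 for Scnn1b and -0.050 to 0.51 for Atp12a. Stem-progenitor-profile values ran from -1.21 to 0.47 for Slc9a3, -0.44 to 0.48 for Aqp8 and -0.76 to 0.029 for Car1, and endothelial Car4 from -0.30 to 0.55. The cause of these shifts was not tested. Depth limits Scnn1b and Scnn1g most, with 347 and 142 epithelial UMIs.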
